A study of Mus musculus with 9 samples.

Results

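The comparison described here sets serum tRNA fragments of mice labelled high fat diet plus SalB against those of mice labelled normal diet, both at week 20. SalB is the labels' own abbreviation, which is kept here. Members were chosen by the treatment label alone: 3 libraries labelled high fat diet + SalB and 3 labelled normal diet, 6 of the 9 libraries of the series. The remaining 3 libraries, labelled high fat diet, were not used. All libraries were made from blood serum with a commercial kit for short tRNA fragments, and the labels give atherosclerosis as the cell type of every sample, the normal diet ones included. The titles of the normal diet samples carry C57, a mouse strain name, and those of the SalB samples carry DSF, which the labels do not explain, and no strain. The strain of the SalB mice, the age at the start, the sex, the SalB dose and whether a sample is 1 mouse or a pool are all not given in the sources used here. Diet, SalB and any difference in strain therefore change together between these 2 groups, and their parts cannot be told apart. Since no label says that each replicate is its own animal, the p-values speak to the spread among these samples, and that spread may be technical. Libraries are called normal diet 1 to 3 and SalB 1 to 3.

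tRNAs carry amino acids to the ribosome and are among the most abundant RNAs of a cell. Nucleases such as angiogenin and Dicer cut them into fragments, and fragments from the 5′ end of Gly, Glu, Val, Lys, His and Asp tRNAs are known components of blood serum. A tRNA gene is transcribed with extra sequence at both ends: RNase P removes the leader ahead of the 5′ end, ELAC2 (RNase Z) removes the trailer behind the 3′ end, and a CCA tail that is not in the gene is then added. Mitochondria hold their own set of tRNAs, read from both strands of the mitochondrial genome. Many nuclear tRNAs carry a methyl group on the A at standard position 58 of the T loop (A58), where reverse transcriptase may stop or insert another base.

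The results turn on a few sequences, shown 5′ to 3′ as DNA letters and read from the deposited alignments, with positions counted along the tRNA reference from 1 at its 5′ end. The mitochondrial fragments and the Arg-ACG trailer are among the fragments with the largest gain in reads. The Gly pair is one fragment with and without a substitution at A58, which is base 56 of this shorter tRNA. The Ala fragment starts 1 base behind A58. The Gly-GCC fragments are a long and a short product of the same 5′ end. The His-GTG pair overlaps over most of its length and moved in opposite directions, and the Asp-GTC pair holds the 5′ part and the middle of 1 tRNA. Capitals mark a CCA tail, the T letters that end a trailer read, or a substituted base.
mt-His-GTG 3′ fragment, bases 32-71: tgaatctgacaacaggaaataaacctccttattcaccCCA
mt-Ser-GCT 5′ fragment, bases 1-19: aagaaagattgcaagaact
Arg-ACG precursor trailer, bases 114-135: ttgggactggtactcctttaTT
Gly-CCC/Gly-GCC 3′ fragment, bases 53-74: tcgattcccggccaatgcaCCA
Gly-CCC/Gly-GCC 3′ fragment with A56T: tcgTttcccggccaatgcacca
Ala-CGC/Ala-TGC 3′ fragment, bases 58-75: tccccggcatctccaCCA
Gly-GCC 5′ fragment, bases 1-31: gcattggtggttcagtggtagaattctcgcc
Gly-GCC 5′ fragment, bases 1-16: gcattggtggttcagt
His-GTG internal fragment, bases 13-31: tagtggttagtactctgcg
His-GTG internal fragment, bases 17-33: ggttagtactctgcgtt
Asp-GTC 5′ fragment, bases 1-34: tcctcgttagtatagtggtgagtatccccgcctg
Asp-GTC internal fragment, bases 32-53: ctgtcacgcgggagaccggggt

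The 6 libraries held 31058 to 156333 tRNA reads. Reads on 1 precursor, Leu-CAG-3-1, made up 42.0% of SalB 2 and 2.55% of SalB 1 but at most 0.107% of the other 4 libraries, and were left out before scaling. That left 31052 to 94623 reads per library. SalB 2 also stood apart in the rest of its reads: the chi-square of fragment counts per degree of freedom was 11.2 and 12.6 between SalB 2 and the other SalB libraries, 5.70 between SalB 1 and SalB 3, and 3.62 to 5.46 among the normal diet libraries, where 1 is sampling noise. Spearman's rank correlation over the tested fragments was 0.817 to 0.852 within normal diet, 0.653 to 0.727 within SalB and 0.179 to 0.335 between the groups, as a description across fragments. A fragment could pass the read filter through the libraries of 1 group alone, where it was high, which can lower the correlation between groups. No 2 replicates were alike within sampling noise. The references are tRNAs only, and 0 of them is named as a microRNA, so microRNA markers of blood cells or liver were not analysed here. Serum RNA comes from many cell types, and fewer cells of a type and less RNA per cell cannot be told apart in such bulk samples. The values are relative to each library's tRNA reads and give no amount of RNA per volume of serum.

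Mitochondrial fragments and precursor trailers took a larger share of the tRNA reads in each SalB library than in any normal diet library, and nuclear 3′ fragments a smaller one. Mitochondrial tRNA fragments made up 3.81%, 4.21% and 3.05% against 18.7%, 15.2% and 18.5%, listed in replicate order for normal diet and then SalB (3.69% ± 0.590 against 17.5% ± 1.96, SD, n = 3 and 3; exact permutation test, two-sided, p = 0.1). Nuclear 3′ fragments, which reach the CCA tail, made up 45.5%, 44.8% and 39.6% against 21.3%, 17.7% and 19% (43.3% ± 3.23 against 19.3% ± 1.81, SD, n = 3 and 3; exact p = 0.1). Trailers of nuclear precursors made up 5.04%, 4.75% and 6.12% against 15.6%, 9.58% and 10.1% (5.30% ± 0.722 against 11.8% ± 3.32, SD, n = 3 and 3; exact p = 0.1). In these 3 classes, and in the small class of precursor bodies, every SalB library lay beyond all normal diet libraries. Nuclear 5′ fragments held 12.2%, 18.3% and 23.1% against 12.1%, 24.8% and 11.8% (exact permutation p = 0.8) and internal fragments 32.9%, 27.2% and 27.4% against 31.6%, 30.2% and 39.8% (exact p = 0.3), and in both the groups overlapped. Among nuclear reads alone, 3′ fragments still held 47.3%, 46.8% and 40.8% against 26.1%, 20.9% and 23.3%. With 3 libraries against 3, no exact p can fall below 0.1, and over the 14 shares tested the smallest Benjamini-Hochberg adjusted value was 0.156. The difference in trailers, 6.47 points, was 19.8 points with the Leu-CAG-3-1 reads kept. When each distinct sequence counted once in place of its reads, the difference was 1.09 points for trailers, 4.55 rather than 13.8 for mitochondrial fragments and -7.92 rather than -24 for nuclear 3′ fragments. Leaders reached 2.07% in SalB 2 and 0.369% to 0.488% elsewhere, and their difference turned from 0.502 to -0.0631 points without SalB 2. The difference of 5′ fragments, -1.62 points, turned to 0.9998 without normal diet 3, 0.444 without SalB 1 and 0.602 without SalB 3.

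**Figure D1:**
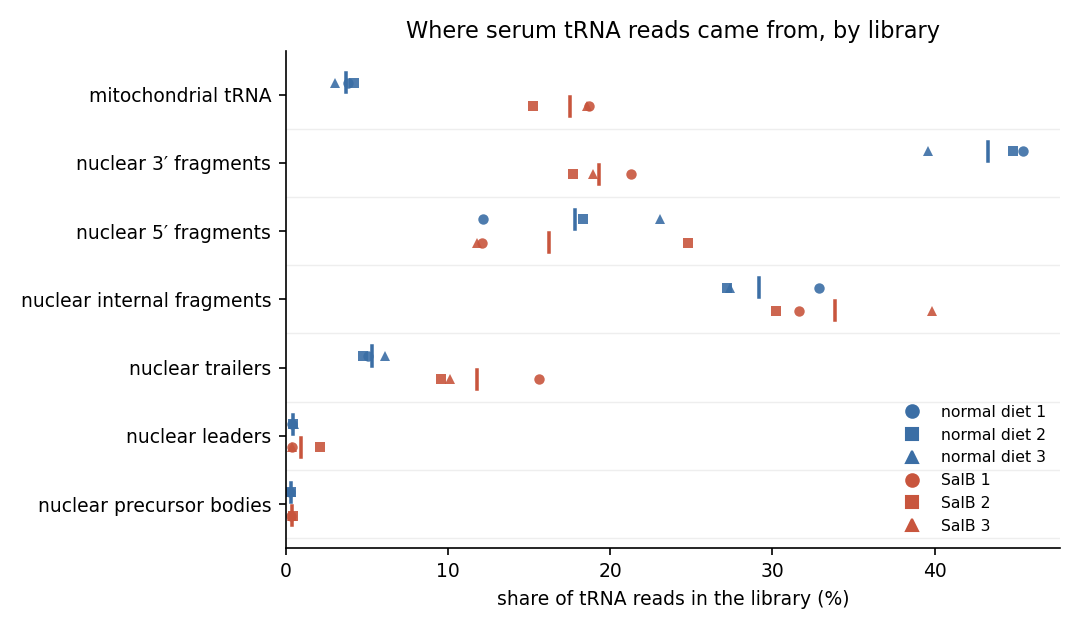
Share of each library's tRNA reads, in percent, by origin of the fragment; each point is 1 library, blue for normal diet and red for SalB on high fat diet, and vertical bars are the means of 3. Mitochondrial reads and trailers of all 3 SalB libraries lie above those of normal diet, nuclear 3′ fragments lie below, and 5′ fragments overlap, with SalB 2 at 24.8%.

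Of 710 fragments tested, that is distinct sequences, 149 were higher and 131 lower with SalB on high fat diet (39.4% called; 21.0% higher and 18.5% lower; limma-voom, two-sided, Benjamini-Hochberg adjusted p at or under 0.05). The groups did not overlap in 372 fragments (52.4%), and 278 of the 280 called fragments were among them; the others, named after their values were seen, were Asp-GTC 5′ bases 1-30 and Tyr-GTA bases 60-76 with A76G. These backgrounds apply to every count of fragments that follows. The tested fragments held 59.8% to 70.7% of the reads used. The median log2 fold change of all fragments was -0.01. It shifted by -0.28 when libraries were scaled by total reads, which gave 116 higher and 178 lower, and by 0.33 when factors came from nuclear mature fragments alone, which gave 178 higher and 85 lower. Changes are therefore relative to this midpoint. Without any 1 normal diet library the calls fell to between 156 and 179, and without SalB 2 there were 262. The classes differed widely in direction: 46 of 66 mitochondrial fragments rose and 0 fell, while 62 of 201 nuclear 3′ fragments fell and 3 rose. A fragment could pass the read filter through the 3 libraries of 1 group alone, where it was high, so counts of calls by class partly follow from the filter. A stricter filter asked for the reads in all 6 libraries and left 259 fragments, of which 49 rose and 47 fell. Among these, 12 mitochondrial fragments rose and 0 fell, and 24 nuclear 3′ fragments fell and 1 rose.

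**Figure D2:**
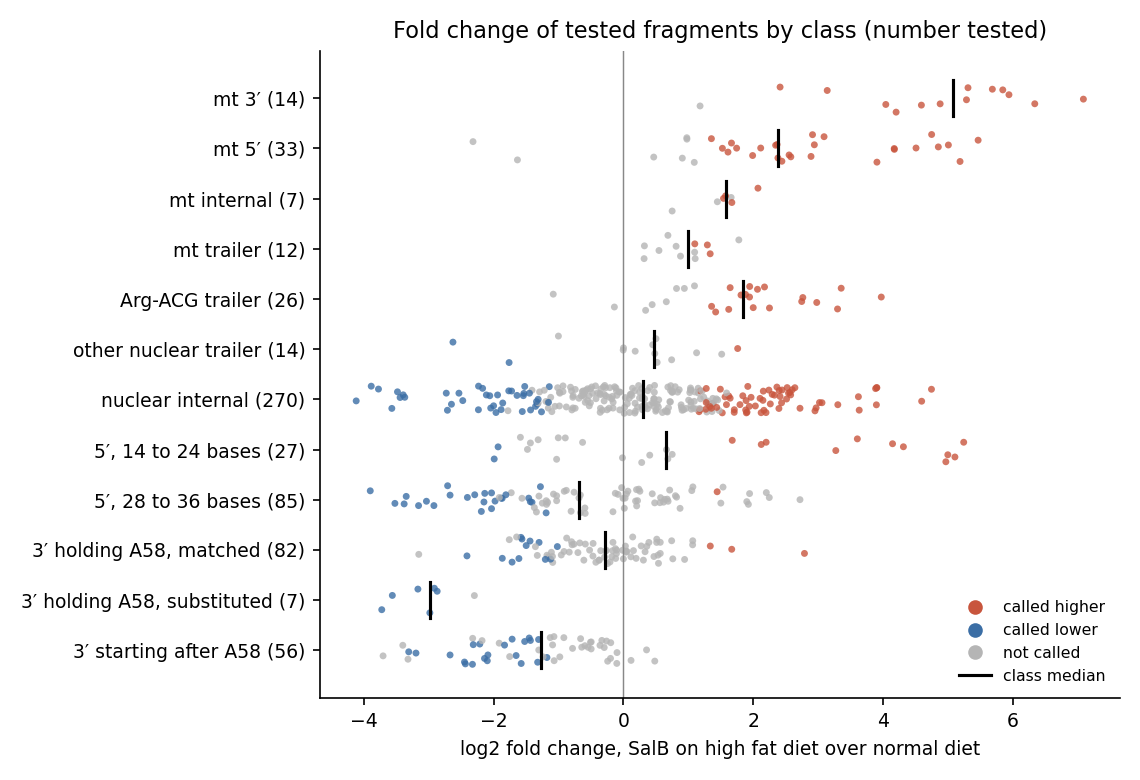
Log2 fold change (SalB on high fat diet over normal diet) of each tested fragment, by class, with the number tested; red points were called higher, blue lower and grey not called, and black bars are class medians. The medians run from 5.08 for mitochondrial 3′ fragments, all of mt-His-GTG, to -2.98 for the 7 nuclear 3′ fragments substituted at A58.

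Mitochondrial tRNA-His (mt-His-GTG) gave the largest change of the families tested. It is read from the heavy strand of the mitochondrial genome, and its reads rose from 5000.2, 6710.2 and 3704 to 112427, 80129.5 and 106516 CPM (counts per 1000000 tRNA reads used, after scaling between libraries; the unit of all levels that follow) (log2 fold change 4.28 with SE 0.29, adjusted p = 4.66e-05). Of 77 families tested, 13 were higher and 4 lower (22.1% called; 16.9% and 5.19%). The fragment of bases 32-71 starts inside the anticodon and runs to the end of the CCA tail. It measured 809.8, 1023 and 845 in the normal diet libraries and 55161, 38591 and 45761 in the SalB libraries. Its mean was 52.1-fold higher (log2 fold change 5.68 with SE 0.33, adjusted p = 1.48e-05), and every SalB library lay far above every normal diet one. Of 20 mt-His-GTG fragments tested, 17 rose and 0 fell (median log2 fold change 4.12). Of the 17, 11 carried a substitution and can be variants of 1 product, so the fragments are not independent. Under the stricter filter, with fewer fragments tested, 2 of this tRNA rose. All its 3′ reads together rose by 5.13 on the log2 scale (SE 0.31, adjusted p = 1.28e-05), and its internal reads by 1.67 (SE 0.33, adjusted p = 0.0107). The share of mt-His-GTG reads that were 3′ fragments was 49.8%, 52.5% and 51.7% against 94.7%, 88% and 93.3%. The fragment of bases 32-68, which starts at the same base and lacks the tail, was not called (506, 361 and 177 against 400.1, 342 and 1042; log2 fold change 0.75, adjusted p = 0.326); it was picked after its values were seen. Of the 3′ reads of this tRNA, 97.9% to 100% began at base 32 in each library. The 40-base fragment is also as long as the longest read in the files, so a longer product would not be seen.

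Mitochondrial tRNA-Ser(GCT), also a heavy-strand tRNA, lacks the D arm that other tRNAs have, and its 5′ fragments rose. Family reads were 9778, 12367 and 7849.6 against 46655, 87261 and 44719 CPM (log2 fold change 2.60 with SE 0.36, adjusted p = 0.0027). The groups did not overlap, and SalB 2 was the highest library. Its 5′ fragment of bases 1-19 measured 101, 512 and 334 in the normal diet libraries and 6315, 14933 and 5693 in the SalB libraries (log2 fold change 5.0 with SE 0.61, adjusted p = 0.000739). Where these fragments ended differed between the groups. Of the 5′ reads of this tRNA, 2.05%, 6.58% and 5.49% against 21.2%, 24.5% and 18.6% ended at base 19, and 6.39%, 5.06% and 6.67% against 15.7%, 16.7% and 11.5% at base 22. The share that ended at base 21 overlapped between groups, at 33.8%, 22.5% and 16.3% against 14.2%, 19.6% and 28.4%. Of 32 fragments of this tRNA, 26 rose and 0 fell, at a median log2 fold change of 2.41. These fragments share an end, many differ only in their last bases and 15 of the 26 carried a substitution, so they are not independent. Without normal diet 3, 15 of the 32 rose, and 27 of all 66 mitochondrial ones did. Under the stricter filter, 7 fragments of this tRNA rose.

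The change was not shared evenly by the mitochondrial set. Of 22 mitochondrial tRNA families seen, 13 could be tested, 6 were higher and 0 lower, and 12 of the 13 had a positive log2 fold change. Besides His and Ser(GCT) these were mt-Trp-TCA (20.2, 0 and 58.9 against 469.7, 641 and 194; log2 fold change 3.78 with SE 0.65, adjusted p = 0.00506), mt-Gly-TCC (385, 331 and 324 against 1252, 1523 and 1744; log2 fold change 2.08 with SE 0.27, adjusted p = 0.0027), mt-Ile-GAT (log2 fold change 1.89, adjusted p = 0.0186) and mt-Thr-TGT (log2 fold change 1.76, adjusted p = 0.0112). Their levels stayed far below those of His and Ser(GCT), and mt-Ile-GAT lost its call without normal diet 1 or 3, as mt-Thr-TGT did without normal diet 1. For mt-Gly-TCC the 3′ reads rose by 4.41 (SE 0.62, adjusted p = 0.0038) and for mt-Trp-TCA by 3.95 (SE 0.65, adjusted p = 0.00672), both from 0 to 5 reads per normal diet library. The 3′ sums of mt-Gly-TCC and mt-Trp-TCA rest on few reads: all 14 mitochondrial 3′ fragments that could be tested singly, 13 of them higher (2 under the stricter filter), came from mt-His-GTG. The most abundant of the families that were not called, mt-Val-TAC, went from 10506, 10472 and 11681 to 28929, 16627 and 17369 (log2 fold change 0.89, adjusted p = 0.0608). Its tested fragments extend past the mature 3′ end and are classed here as trailers, and they count in the mitochondrial share. Which RNA they came from was not tested. Of these trailers, 3 of 12 rose, and 0 of 12 rose under total-read scaling or without normal diet 2, normal diet 3 or SalB 1. Of 2 fragments of light-strand tRNAs 0 was called, and the more abundant, mt-Ser-TGA bases 1-21, measured 2288, 2738 and 364 against 17.4, 1167 and 557 (log2 fold change -2.32 with SE 1.30, adjusted p = 0.185). Taken without His and Ser(GCT), mitochondrial reads were 2.11%, 2.17% and 1.81% against 3.63%, 2.25% and 2.97% of all reads.

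Of 43 leader and trailer fragments of nuclear precursors, 19 rose and 2 fell, with a median of 1.09, and 18 of the 19 were trailers of 1 family, Arg-ACG. The fragments came from the Arg-ACG-1-3 precursor and began at base 114, the first base behind the mature 3′ end, in 99.0% to 99.8% of its trailer reads in each library. The 22-base trailer, whose sequence ends in TT, measured 8098, 6650.1 and 10915 in the normal diet libraries and 40532, 26563 and 24927 in the SalB libraries (log2 fold change 1.81 with SE 0.34, adjusted p = 0.00441). The 20-base form rose as well, from 2348, 2437 and 3281 to 17239, 13253 and 5984 (log2 fold change 2.06 with SE 0.44, adjusted p = 0.0074). In both forms every SalB library exceeded every normal diet library. Of 26 Arg-ACG trailer fragments tested, 18 rose and 0 fell (11 rose without normal diet 3), with a median of 1.85. Of the 18, 13 carried a substitution and can be variants of 1 product, so the fragments are not independent. Under the stricter filter, 10 rose and 1 fell. Under total-read scaling, 15 rose and 1 fell. Of the 14 trailer fragments of other nuclear tRNAs, 1 rose (His-GTG) and 2 fell (Gly-GCC and Ser-GCT). Arg-ACG trailers were also longer in the SalB libraries, with no overlap between the groups. Of them, 18.2%, 16.4% and 26.2% against 4.46%, 6.23% and 6.85% had 14 to 17 bases, and 71.7%, 71.9% and 64.8% against 87.4%, 82.6% and 85.4% had 20 to 23. Of 9 mature Arg-ACG 3′ fragments, 5 fell and 0 rose. Of 168 sums by family and origin, 31 were higher and 14 lower (26.8% called; 18.5% and 8.33%; no overlap in 75, 44.6%), among them 5 of 20 nuclear trailers (Arg-CCT, Gly-CCC, Ile-AAT, Arg-ACG and Ala-CGC), all higher. The sums called numbered 11 to 20 without any 1 normal diet library, 29 without SalB 3 and 69 without SalB 2. The largest change among the trailers was that of Arg-CCT, from 3 reads in all normal diet libraries to 50 in the SalB libraries, a ratio of 18.2 with a 95% exact interval of 5.88 to 91.2 that covers counting error only.

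Nuclear 3′ fragments fell broadly. Of 201 tested, 62 fell and 3 rose, at a median log2 fold change of -0.98 (88 fell and 1 rose under total-read scaling, 42 and 4 with factors from nuclear mature fragments, and 45 and 1 with the Leu-CAG-3-1 reads kept), and of 40 sums of 3′ reads by family, 11 fell and 1, of Phe-GAA, rose. The 143 with a full CCA tail gave 48 lower and 3 higher, and the 58 that end within the tail gave 14 lower and 0 higher. The share of 3′ reads that ended with the full tail was 82.3%, 80.2% and 83.6% against 80.1%, 75.9% and 81.3% (exact permutation p = 0.2), so the groups overlapped in this measure. The most abundant that fell, Ala-CGC/Ala-TGC bases 58-75, measured 21904, 16459.6 and 13882 in the normal diet libraries and 3757, 2719 and 5862 in the SalB libraries (log2 fold change -2.14 with SE 0.37, adjusted p = 0.00341). Leu-AAG/Leu-TAG bases 68-85, atcccaccgctgccaCCA, measured 18280.1, 14293 and 15218 against 7532, 4441 and 4482 (log2 fold change -1.58 with SE 0.33, adjusted p = 0.00677). Lys-CTT bases 61-76, cccacgttgggcgCCA, measured 1356, 843 and 1778 against 244, 142 and 169.6 (log2 fold change -2.79, adjusted p = 0.0031). In these 3 fragments no SalB library reached the lowest normal diet library. Tyr-GTA bases 60-76, tccggctcgaaggaCCA, fell from 5101, 4062 and 7279.8 to 365, 1950.2 and 266 (log2 fold change -3.20 with SE 0.65, adjusted p = 0.00584), and SalB 2 was the nearest to normal diet. The sum of Tyr-GTA 3′ reads was 21985, 23019 and 26084 against 2888, 17481 and 4167, and its call (adjusted p = 0.0302) was lost without any 1 library other than SalB 2. The 3 fragments that rose were 2 with a substituted last base, of His-GTG and Gly-TCC, and the 39-base Phe-GAA fragment of bases 38-76 (60.7, 60.2 and 49.1 against 452, 399 and 460.3), named after their values were seen. The lower count of 62 dropped to 33 without normal diet 1 and 34 without normal diet 2, and was 71 without SalB 2.

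Among nuclear 3′ fragments pooled over families, mismatches at A58 were less frequent in every SalB library. Reads that hold A58 were mismatched there in 19.9%, 31.4% and 18.1% against 3.77%, 5.48% and 7.48% of cases (23.1% ± 7.22 against 5.57% ± 1.86, SD, n = 3 and 3; exact permutation p = 0.1). The highest SalB library, 7.48%, stayed below the lowest normal diet library, 18.1%. This share is a ratio inside each library and does not depend on the scaling; its difference, -17.6 points, was -5.13 when each distinct sequence counted once. The highest shares plotted were those of glycine tRNAs: Gly-CCC reads were mismatched in 67.6%, 81% and 61% against 25.3%, 25% and 37.3%, and Gly-GCC reads in 48.3%, 64.1% and 36.1% against 8.05%, 7.21% and 15.6%. In Ala-CGC/Ala-TGC the share was low in both groups, at 1.77%, 2.40% and 1.6% against 0.730%, 1.47% and 1.90%, and in His-GTG it was at most 1.01%. These shares by family are a description without a test.

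The pair of glycine fragments printed above shows the contrast. The matched form, which Gly-CCC and Gly-GCC share, measured 15446, 23561 and 26820.5 in the normal diet libraries and 19535, 12797 and 14583 in the SalB libraries (log2 fold change -0.47 with SE 0.33, adjusted p = 0.289), and the groups overlapped. The form with A56T measured 11741, 29880.1 and 13459 against 2348, 1580.1 and 2859 (log2 fold change -2.91 with SE 0.45, adjusted p = 0.00236), and every SalB library lay below every normal diet one. The same substitution fell in Gly-CCC (log2 fold change -2.98, adjusted p = 0.00236) and Gly-GCC (-3.17, adjusted p = 0.0031), and A57T, the same place in the longer Gly-TCC, fell by 2.87 (adjusted p = 0.00427). Of 7 tested fragments substituted at A58, 6 fell and 0 rose, with a median of -2.98; the 6 were all of glycine tRNAs, and the only other, of Tyr-GTA, was not called (log2 fold change -2.30). Of 82 that hold A58 and match, 12 fell and 3 rose, with a median of -0.28; those that fell were 1, 2 and 5 without normal diet 1, 2 and 3, 5 without SalB 1, and 4 with factors from nuclear mature fragments or with the Leu-CAG-3-1 reads kept. At most 1 mismatch was allowed per alignment, so a read with a further difference is not counted.

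Reads that start 1 base behind A58 were a smaller part of nuclear 3′ reads with SalB, at 35%, 27.4% and 28.7% against 21.3%, 26.2% and 22% (exact permutation p = 0.1, no overlap). Of 56 such fragments, 21 fell and 0 rose, with a median of -1.27; the count was 10 without normal diet 1, 9 without normal diet 2 and 25 without SalB 2, 13 with factors from nuclear mature fragments and 32 with total reads. In Ala-AGC the share starting there was 32.3%, 27% and 25.9% against 8.55%, 6.13% and 11%, and its fragment of bases 58-75, tccccagcatctccaCCA, fell from 5688, 3791 and 4146 to 609, 256 and 727 (log2 fold change -3.20 with SE 0.45, adjusted p = 0.00146). The Ala-CGC/Ala-TGC fragment that starts 4 bases earlier and holds A58, tcgatccccggcatctccaCCA, fell by less, from 11944, 14534 and 11779 to 5479.6, 5352 and 8406 (log2 fold change -1.02 with SE 0.32, adjusted p = 0.0327), a call lost without any 1 library other than SalB 3. The share of 3′ reads holding A58 was 38.5%, 50.7% and 43% against 56.4%, 49.5% and 59.6% (exact permutation p = 0.2), with SalB 2 inside the normal diet range. In glycine tRNAs the share starting 1 base behind A58 was higher in every SalB library: 14.3%, 7.84% and 13% against 26.9%, 29.6% and 20.3% in Gly-CCC, 5.95%, 4.43% and 4.30% against 8.6%, 6.36% and 7.46% in Gly-GCC, and 1.08%, 0.954% and 1.27% against 2.50%, 2.06% and 2.83% in the reads they share. In Ala-CGC/Ala-TGC and Tyr-GTA this share was lower in every SalB library, as in Ala-AGC. It overlapped between groups in Leu-AAG/Leu-TAG, at 81.7%, 80.2% and 79% against 84.6%, 83.9% and 80.2%. In Gln-CTG it also overlapped, at 33.8%, 36.7% and 28.4% against 17.7%, 41.6% and 17.5%. The sources used here do not say whether the RNA was demethylated before library preparation.

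**Figure D3:**
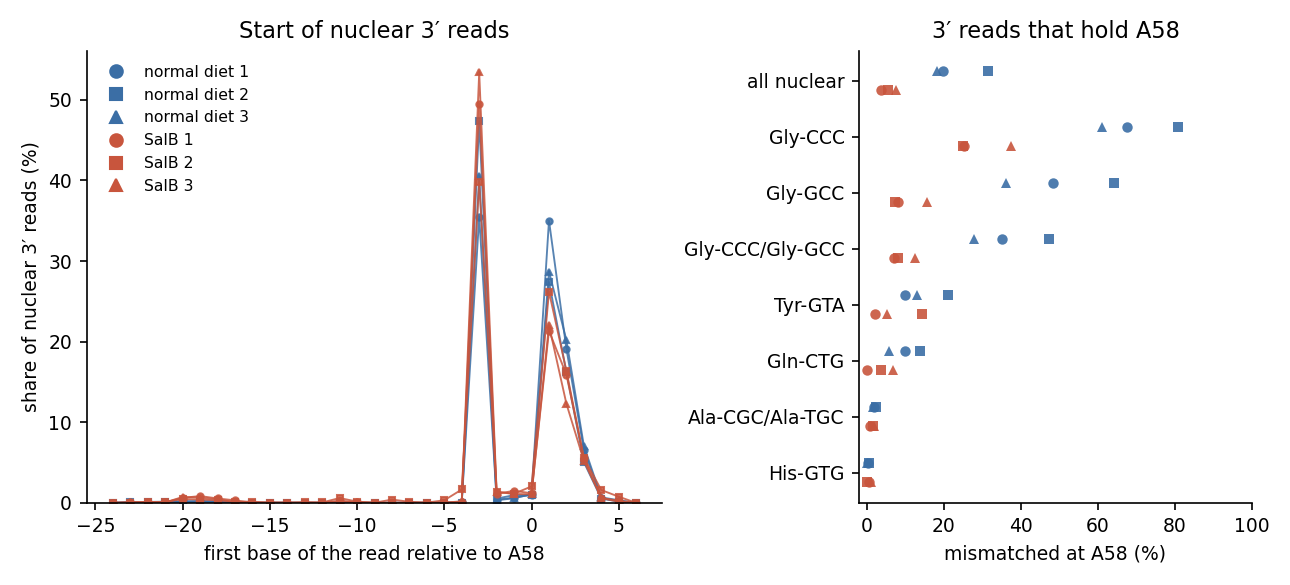
Left: share of nuclear 3′ reads, in percent, by the position of their first base relative to A58, 1 line per library. Right: percent of 3′ reads holding A58 that are mismatched there, for all nuclear tRNAs and 7 families. Starts concentrate 3 bases ahead of A58 and 1 to 3 bases behind it; normal diet lines (blue) are higher 1 base behind, and the mismatch share of glycine tRNAs is lower in all SalB libraries (red).

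Nuclear 5′ fragments overlapped between the groups in their share of reads but differed in length. Of 128 tested, 27 fell and 16 rose, with a median of -0.11, and of the 117 from Gly, Glu, Val, Lys, His and Asp tRNAs, the families known from serum, 24 fell and 15 rose, with a median of -0.08. Without normal diet 2 or 3, those of the 117 that fell were 12 and 10. Fragments of 28 to 36 bases, the size of a cut in the anticodon loop, were 72.1%, 77.7% and 77% against 53.8%, 47.2% and 68.2% of 5′ reads (exact permutation p = 0.1), and those of 14 to 24 bases, the size of a cut in or near the D loop, were 20.7%, 15.9% and 16.4% against 31.5%, 38.3% and 22.1% (exact permutation p = 0.1). Neither overlapped between groups. Counting each distinct sequence once, the differences were -8.28 rather than -19.2 points and 5.89 rather than 12.9 points. Of 85 tested fragments of 28 to 36 bases, 25 fell and 1, Glu-CTC bases 1-33 with T33A, rose, with a median of -0.69. Of 27 of 14 to 24 bases, 11 rose and 2, both of Gly-ACC/Val-AAC/Val-CAC, fell, with a median of 0.66. The 25 fell to 10 without normal diet 2 or 3, and the 11 to 7 without normal diet 3. With the Leu-CAG-3-1 reads kept they were 16 and 6. Under the stricter filter, which asks for the reads in all 6 libraries, they were 10 and 1. Short fragments with few normal diet reads could pass the main filter through the SalB libraries alone, so the count of 11 partly follows from the filter. The lower calls of the longer class came from few tRNAs: 13 of 14 Asp-GTC fragments fell, and 3 of 3 for the Pro family. For Gly-GCC 7 of 38 fell, near the 18.5% called lower over all fragments tested. The shorter class rose in Gly-GCC, with 9 of 12. Among the 62 Gly-GCC 5′ fragments of any length, 13 rose, near the 21.0% called higher over all fragments tested, and 7 fell. Under the stricter filter 2 rose and 8 fell.

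Gly-GCC had the most 5′ reads of the families tested, 44840.0, 94274 and 119916 against 76958, 107134 and 62088 CPM in all (log2 fold change 0.02 with SE 0.38, adjusted p = 0.963). Its 31-base fragment measured 5931, 18446 and 23834 in the normal diet libraries and 3740.0, 14149.7 and 4046 in the SalB libraries and was not called (log2 fold change -1.19 with SE 0.65, adjusted p = 0.172). SalB 2 lay within the normal diet range, and without SalB 2 the fragment fell by 1.82 (adjusted p = 0.0252). Fragments of 16 bases measured 40.5, 30.1 and 78.6 against 3601, 1594 and 1114 (log2 fold change 4.97 with SE 0.69, adjusted p = 0.00146), and those of 15 bases measured 81, 120.4 and 49.1 against 1722, 1381 and 1623 (4.31, SE 0.50, adjusted p = 0.000672). These 2 were named after their values were seen. The 25-base fragment rose from 162, 391 and 825 to 3409.5, 9523 and 1090.1 (log2 fold change 3.11 with SE 0.83, adjusted p = 0.0175), a call lost without normal diet 1, normal diet 2 or SalB 1. The 14-base fragment, shared with Gly-CCC, had 3 reads in all normal diet libraries and 101 with SalB, a ratio of 36.7 (95% exact interval 12.2 to 181, counting error only). Of the Gly-GCC 5′ reads, 6.05%, 4.31% and 3.29% against 28.1%, 11.6% and 18.5% had 14 to 24 bases. The share ending at base 31 was 33.8%, 44% and 41% against 13.7%, 20.9% and 16.7%, and the share ending at base 33 was 17%, 15.8% and 17% against 6.01%, 3.20% and 5.77%. No SalB library reached the normal diet range in any of these 3 shares.

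**Figure D4:**
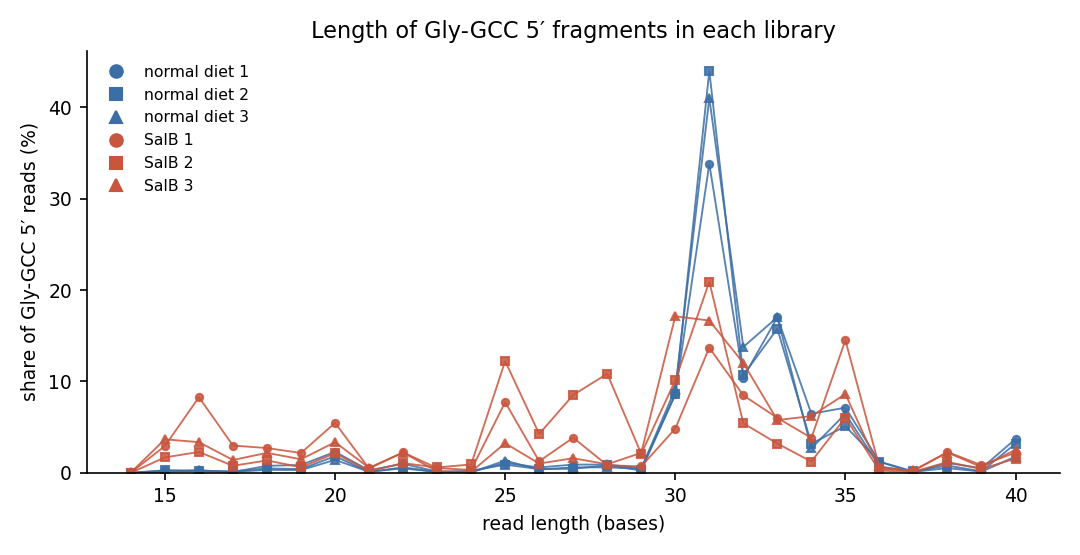
Share of Gly-GCC 5′ reads, in percent, by read length in bases, 1 line per library. The peak at 31 bases holds 33.8% to 44.0% with normal diet (blue) and 13.7% to 20.9% with SalB (red), where reads of 15 to 18 and 25 bases take a larger share.

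Asp-GTC, His-GTG, Tyr-GTA and Asn-GTT carry queuosine or its derivatives in the anticodon, a modified base made from a gut-derived nutrient. Of their 88 tested fragments 29 fell and 13 rose, with a median of -0.60. Without normal diet 1, 2 and 3 those that fell were 16, 15 and 16, and those that rose 8, 7 and 5. Under the stricter filter, which tests fewer fragments, 4 fell and 2 rose. The tRNAs differed: 17 fell and 6 rose of 34 for Asp-GTC, and 4 fell and 7 rose of 37 for His-GTG. The Asp-GTC 5′ fragment of bases 1-34 measured 2429, 2768 and 1316 in the normal diet libraries and 244, 128 and 412 in the SalB libraries (log2 fold change -3.16 with SE 0.51, adjusted p = 0.003), while bases 32-53 of the same tRNA measured 344, 271 and 285 against 1948, 982 and 1793 (log2 fold change 2.29 with SE 0.42, adjusted p = 0.00397). Neither overlapped between groups. All Asp-GTC 5′ reads together went from 18948, 19799.7 and 19423 to 5288, 2505 and 8333 (log2 fold change -2.0 with SE 0.41, adjusted p = 0.0107; adjusted p = 0.0511 without normal diet 3). His-GTG showed 2 largely overlapping windows that moved in opposite directions. Bases 13-31 measured 182, 181 and 128 against 1044, 754 and 824 (log2 fold change 2.44 with SE 0.42, adjusted p = 0.00333), and bases 17-33 measured 1539, 1715 and 1425 against 174, 242 and 291 (log2 fold change -2.73 with SE 0.38, adjusted p = 0.00146). In Tyr-GTA 8 of 16 fragments fell and 0 rose.

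Internal fragments, which touch neither end of the mature tRNA, went both ways: of 270 tested, 65 rose and 40 fell. Summed by family, 16 of 56 rose and 1, Arg-CCG/Arg-CCT, fell. Without normal diet 1, 2 or 3 the 65 became 43, 32 and 30. The 40 became 20, 19 and 21, 25 without SalB 1 or SalB 2, and 23 with factors from nuclear mature fragments. Trp-CCA bases 38-69, which run from the anticodon arm into the acceptor stem, had the highest fold change among the named ones, at 20.2, 30.1 and 19.6 against 2105, 413 and 533 (log2 fold change 4.59 with SE 0.87, adjusted p = 0.00475; adjusted p = 0.0514 without normal diet 2). It rested on 1, 1 and 2 reads in the normal diet libraries against 121, 29 and 22 in the SalB libraries. It therefore passed the read filter through the SalB libraries alone, where it was high. SalB 1 held the most of it. Lys-CTT bases 16-31, tcggtagagcatgaga, rose from 547, 361 and 688 to 2939.8, 5324 and 1914 (log2 fold change 2.56 with SE 0.47, adjusted p = 0.00397). The same window of another Lys-CTT gene copy, tcggtagagcatggga, measured 789.5, 782 and 589 against 783, 626 and 581 (log2 fold change -0.11 with SE 0.36, adjusted p = 0.822), as seen after the values were known; the difference between the copies was not tested.

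Fragments of elongator and initiator methionine tRNAs, which read AUG inside and at the start of a message, were called in 1 direction. Of 16 fragments of Met and selenocysteine tRNAs, all of them from Met or initiator Met, 6 rose and 0 fell, with a median of 0.86; 3 rose under total-read scaling, and 3, 1 and 2 without normal diet 1, 2 and 3. Elongator Met-CAT bases 36-54 measured 1235, 873 and 1415 against 2609, 3075 and 3173 (log2 fold change 1.33 with SE 0.35, adjusted p = 0.0162), and initiator Met bases 16-31 measured 364, 361 and 403 against 731, 2463 and 1672 (log2 fold change 1.91 with SE 0.49, adjusted p = 0.0152). The call for initiator Met was lost without any 1 normal diet library, and that for Met-CAT without normal diet 2. Other named internal fragments that rose were Ala-AGC bases 39-54 (log2 fold change 2.36, adjusted p = 0.0046), Arg-CCT bases 12-29 (2.64, adjusted p = 0.0141, lost without any 1 normal diet library) and Gln-CTG bases 25-41 (1.90, adjusted p = 0.0245, lost without any 1 normal diet library or SalB 3). The Ala-AGC 5′ fragment of 16 bases, which starts with a run of G, rose by 2.12 (adjusted p = 0.0131; 0.101 without normal diet 3).

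Among those that fell were 2 fragments of the Pro family that end at base 30: bases 1-30 measured 425, 1565 and 265 against 17.4, 142 and 24.2 (log2 fold change -3.35 with SE 0.97, adjusted p = 0.0238) and bases 8-30 measured 972, 1625 and 619 against 157, 56.9 and 72.7 (log2 fold change -3.37 with SE 0.62, adjusted p = 0.00411). The former lost its call without any 1 of normal diet 1, normal diet 2, SalB 1 and SalB 3. Another fragment with this end, bases 17-30, ggtatgattctcgc, was among the 10 most abundant of all and was not called (12916, 7041 and 8930.3 against 4175, 3886 and 10514; log2 fold change -0.78, adjusted p = 0.188). Arg-CCT bases 27-54 with C32T fell from 1154, 1956 and 1051 to 69.6, 71.2 and 266 (log2 fold change -3.57 with SE 0.58, adjusted p = 0.003). Position 32 lies in the anticodon loop, a place where tRNAs are often modified.

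**Figure D5:**
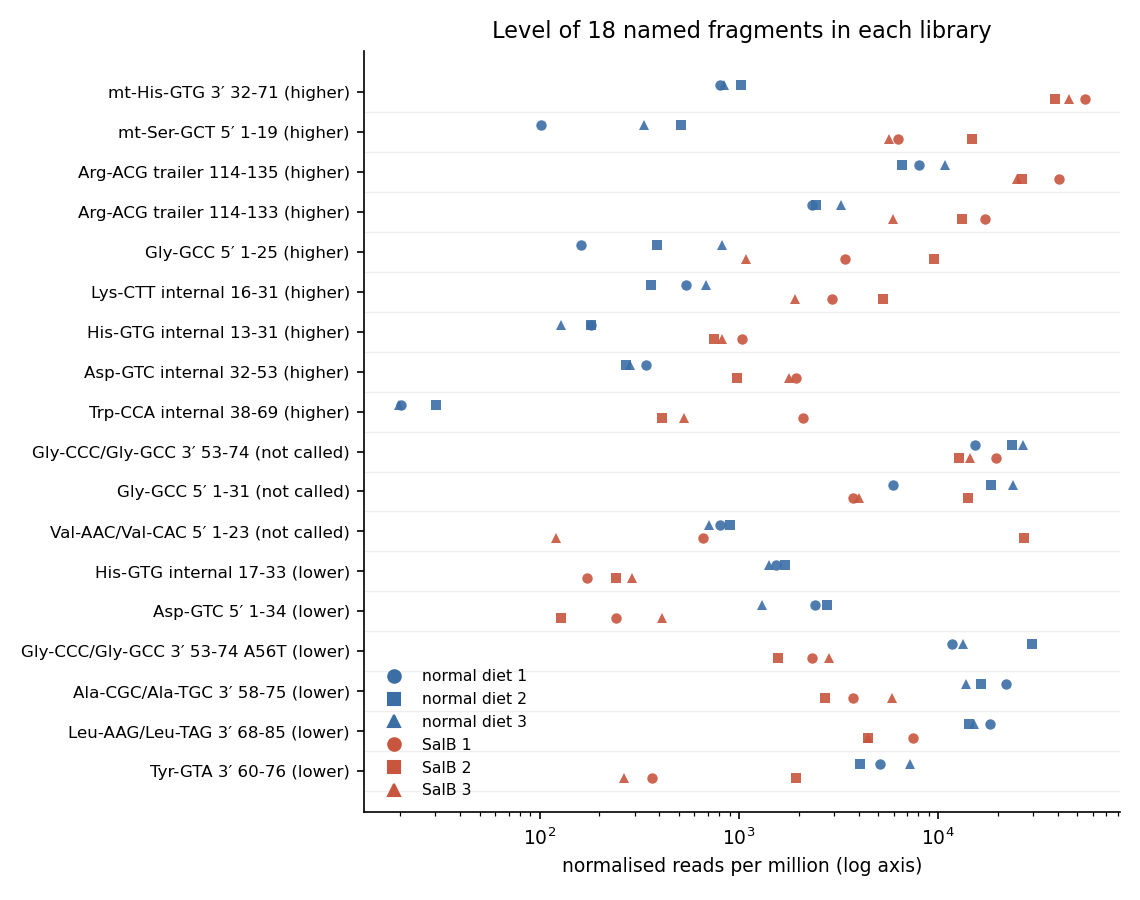
Level of 18 named fragments in each library, in normalised CPM on a log axis; each point is 1 library, blue for normal diet and red for SalB, with the call beside the name. The called fragments show no overlap of the groups, and in the Val fragment SalB 2, at 27232, stands apart from the other 5 libraries.

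Across whole families, the nuclear tRNAs that rose were Phe-GAA (547, 692 and 364 against 1914, 2363 and 1865; log2 fold change 2.04 with SE 0.30, adjusted p = 0.0027), Arg-ACG, Met-CAT, Ile-TAT, Arg-TCT and 2 joint Lys families. Those that fell were Leu-AAG/Leu-TAG (46419, 35928 and 37755 against 20648, 12043 and 14608; log2 fold change -1.38 with SE 0.26, adjusted p = 0.00676), Ala-CGC/Ala-TGC (56035, 49168 and 40653 against 17813, 15104 and 24855; log2 fold change -1.37 with SE 0.25, adjusted p = 0.00664), Gly-CCC (log2 fold change -0.99, adjusted p = 0.0246) and Arg-CCG/Arg-CCT (-1.75, adjusted p = 0.0471). In the first 2 of these every SalB library lay well below every normal diet library. Gly-CCC lost its call without any 1 library other than SalB 2 and SalB 3, and Arg-CCG/Arg-CCT without any 1 other than SalB 2. Over all alternative settings, these included, Gly-CCC lost its call in 6 and kept it in 12. Arg-CCG/Arg-CCT lost it in 12 and kept it in 5. The number of families called depended on SalB 2 more than on any other library: 39 of 77 were called without it, 23 higher and 16 lower, and 10, 11 and 11 without normal diet 1, 2 and 3. The Val-AAC/Val-CAC 5′ fragment of bases 1-23, gtttccgtagtgtagtggttatc, is one where SalB 2 stood apart. It measured 809.8, 903 and 707 in the normal diet libraries and 661, 27232 and 121 in the SalB libraries (log2 fold change 0.75 with SE 1.55, adjusted p = 0.72) and turned to -1.33 without SalB 2.

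The balance of 5′ to 3′ fragments within a family or joint family changed beyond the spread in 2 of 33 (6.06%), 1 toward 5′ (3.03%) and 1 toward 3′ (3.03%). The groups did not overlap in 9 (27.3%). The 1 toward 5′ was a joint family, not a single tRNA. In the reads that Gly-CCC and Gly-GCC share, log2 of 5′ over 3′ reads was -8.36, -8.95 and -7.86 with normal diet and -4.66, -4.39 and -5.24 with SalB (log2 change 3.63, SE 0.59, adjusted p = 0.0116; limma). It rests on 6, 5 and 25 against 90, 83 and 34 shared 5′ reads, too short to assign to either tRNA. In the reads of 1 of them alone the balance was not called, for Gly-GCC (log2 change 0.56, adjusted p = 0.623, limma) or Gly-CCC (1.07, adjusted p = 0.260, limma). In mt-His-GTG it was -7.95, -4.71 and -5.44 with normal diet and -11.99, -11.69 and -9.54 with SalB (log2 change -5.04, SE 1.05, adjusted p = 0.0266), resting on 0 to 5 reads of 5′ fragments per library. Both calls were lost without normal diet 2, without SalB 1 or among reads of 16 to 40 bases, and that of mt-His-GTG also without normal diet 3. Not past the threshold were Tyr-GTA (-6.04, -5.63 and -5.53 with normal diet and -2.65, -4.96 and -2.60 with SalB; log2 change 2.33, adjusted p = 0.148) and Asp-GTC (3.88, 4.43 and 5.05 with normal diet and 1.90, 1.41 and 3.12 with SalB; log2 change -2.31, adjusted p = 0.112); without SalB 2 Tyr-GTA passed at 3.11 (adjusted p = 0.00633), and without SalB 3 Asp-GTC passed at -2.80 (adjusted p = 0.0367).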

How the data were processed

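Short RNA from blood serum was sequenced in 9 libraries, of which 6 were used. The submitters' processing notes name FastQC, cutadapt, Bowtie, edgeR and mm10 without version or role. The files the authors deposited are alignments in Bowtie's default layout, whose measured column is another kind of value, the offset of each read on a mature or precursor tRNA reference; the deposited read names carry the count of each distinct sequence. Adapter and alignment settings were not given in the sources used here. All alignments were on the forward strand with at most 1 mismatch and 14 to 40 bases.

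Each read name was counted once per library. The Leu-CAG-3-1 precursor's reads were left out. Reads that meet several families form a joint family, so near-identical gene copies cannot be told apart. A read is 5′ if it starts at base 1, 3′ if it reaches the last 3 bases of a mature reference that ends in CCA, a leader or trailer if it extends past the mature ends of a precursor (references start 40 bases ahead of it), and internal otherwise. A58 was taken as the A 18 bases before the end of the reference. Features had at least 10 reads at the median depth in 3 libraries and 15 in all. CPM (counts per 1000000 reads used) were scaled by trimmed-mean-of-M-values factors computed from their definition and tested with limma-voom (limma 3.58.1, R 4.3.3; tables with Python 3.11.15), two-sided, with Benjamini-Hochberg adjustment over all features of a kind. The balance used limma on log2 ratios with 0.5 added, and shares an exact permutation test. On simulated counts these fits were tested for recovery of known changes.

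Named fragments were, per direction, the 12 called with the largest change among the most abundant of each family and origin, without overlap and with a mean of at least 500 CPM in the higher group, plus the 10 most abundant and the most abundant of each of 15 lists; of families and sums up to 8, of balances up to 5 per direction, with the 3 of smallest p where fewer than 3 were called. Members and lists were chosen with earlier results of these data known. Alternatives covered scaling, filters, reads left out, test, read length, merged variants, reads of 1 family, a replicate block and each library left out. No coordinates are given, since the alignments are to tRNA references.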

Additional observations from a re-analysis of the deposited data

Results flagged for a closer look

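Reads on the Leu-CAG-3-1 precursor, which the comparisons leave out, stood above the normal diet level in 2 SalB libraries. They made up 2.55% of all tRNA reads in SalB 1 (1590 of 62258; exact 95% interval 2.43% to 2.68%) and 42.0% in SalB 2 (65712 of 156333; 41.8% to 42.3%). In SalB 3 they made up 0.0573%, within the normal diet range of 0.0193% to 0.107%. The most frequent of these sequences began at base 137 of the precursor and ended at base 152, with 945 reads in SalB 1 and 37242 in SalB 2. The intervals cover counting error only, and no value measured here was tested against this difference between the SalB libraries.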

How the results depend on the processing

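The 3 libraries of a group limit every comparison, the deepest library used held about 3 times the reads of the shallowest, and fragments below the read filter were not tested. Of the named fragments' values under the other settings, 649 kept their direction and call, 30 lost the call, 8 gained it and 1 reversed: the Val-AAC/Val-CAC 5-prime 1-23 fragment turned to -1.33 without SalB 2 and was 2.44 at most, without SalB 3. Of named families 189 were kept and 23 lost, of sums 249 and 30, and of balances 57 and 7, with 2 gained. Fragments called were 641 with no filter (417 higher, 224 lower) and 96 with the stricter filter (49 higher, 47 lower), which change how many are tested. Leaving out 1 library gave 156 to 262, with 77 to 145 higher and 65 to 121 lower, and factors from nuclear mature fragments gave 85 lower. Families called were 28 with factors from nuclear mature fragments (26 higher, 2 lower) and 27 with sample quality weights (20 higher, 7 lower). Leaving out 1 library gave 10 to 39, with 8 to 23 higher and 2 to 16 lower. Sums called were 28 with no filter (20 higher, 8 lower), 17 higher with total reads, 6 lower with factors from nuclear mature fragments and 9 lower with the Leu-CAG-3-1 reads kept. Leaving out 1 library gave 11 to 69, with 9 to 39 higher and 2 to 30 lower. Balances called were 0 among reads of 16 to 40 bases (0 higher, 0 lower), and 0 to 5 with 1 library left out (0 to 3 higher, 0 to 2 lower). The share of nuclear 5′ reads ranged from a difference of -5.90 points without SalB 2 to 0.9998 without normal diet 3, reversed also without SalB 1 (0.444) and SalB 3 (0.602), and that of leaders from -0.0631 without SalB 2 to 0.790 without SalB 3. Deviations of same-numbered libraries of the 2 groups correlated at r = 0.0435, 0.0525 and -0.253. Those of differently numbered libraries correlated at -0.232 to 0.221. These values cannot decide whether the numbers pair the libraries, since a shared preparation step need not show in them. With a replicate block, 258 fragments (143 higher, 115 lower), 9 families (8 higher, 1 lower), 44 sums (28 higher, 16 lower) and 3 balances (2 higher, 1 lower) were called. The cause of these shifts was not tested.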
